A study of Mus musculus with 6 samples.

Results

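The 84 cells that the deposited annotation of a mouse retinal pigment epithelium (RPE) and choroid data set calls Myeloid are described here. They were all cells carrying that name, 84 of 25428 cells (0.330%), and the annotation holds 7 other types. The cells came from 6 male C57BL/6J mouse samples of 12 to 16 months, 3 labelled Dram2 wt/wt (unaltered) and 3 Dram2 ko/ko (a constitutive deletion of exon 4 of Dram2, a gene of lysosomal membranes and autophagy). All samples were labelled batch 1 except Dram2 ko/ko replicate 3, the only one of batch 2. By the study's methods the dissociated tissue was kept in culture before sequencing, and the labels do not say whether a sample was 1 animal or a pool.

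Myeloid cells of the choroid are mostly macrophages that lie along its vessels and beneath the RPE. They take up debris with scavenger and Fc receptors, digest it in lysosomes, make the C1q subunits that open the classical complement pathway, and call in other leukocytes with chemokines. They depend on CSF1 receptor signalling, whose ligands CSF1 and IL-34 are made by neighbouring cells, and their identity rests on the transcription factor PU.1, encoded by Spi1.

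The Myeloid cells numbered 9, 32 and 15 in Dram2 wt/wt replicates 1 to 3 and 3, 11 and 14 in Dram2 ko/ko replicates 1 to 3. Unique molecular identifiers (UMIs, counted RNA molecules) ranged from 3654 to 93470 per cell, with a median of 16550, and from 137385 to 591391 summed per sample. Levels are given as CPM, the UMIs of a gene relative to all UMIs of the summed cells, in which 1 UMI in all 84 cells is worth 0.455 CPM. A gene with no UMI among the 84 cells has an upper limit of 1.36 CPM, which is 3 counts, and such limits cover counting error only. The cells of the file carry running numbers, so barcodes shared between libraries were not counted.

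The 6 markers of the type were present at high level and were almost absent elsewhere. Lyz2, which encodes the antibacterial enzyme lysozyme (GRCm38 chr10:117277331-117282321, minus strand), was at 9995 CPM, and the complement subunit genes C1qb (chr4:136880129-136886187, minus strand) and C1qa (chr4:136895917-136898803, minus strand) were at 1203 and 815 CPM. Tyrobp, an adaptor of activating receptors, was at 1028 CPM, the platelet factor gene Pf4 at 663 CPM and the CSF1 receptor gene Csf1r at 155 CPM. In none of the 7 other types did Lyz2 exceed 5.92 CPM or Csf1r 3.94 CPM, and the other 4 markers were at 1.11 CPM or less. Of 9063 genes at 10 CPM or more in Myeloid cells, 2.23% were at least 10 times higher there than in every other type, and 10.7% were higher by any amount. Among genes at 100 CPM or more, the ratio was highest for Adgre1, Cd300c2, Cd52, C1qc and C1qb, with Adgre1 at 125 CPM against 0.0252 CPM in RPE cells.

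The markers varied between samples by less than an order of magnitude. Lyz2 was at 5743, 5764 and 13225 CPM in Dram2 wt/wt and at 15271, 8904 and 14623 CPM in Dram2 ko/ko. C1qb was at 781, 1273 and 1580 CPM in Dram2 wt/wt and at 1150, 1202 and 1156 CPM in Dram2 ko/ko. Replicate 1 of Dram2 wt/wt had the lowest level of Lyz2, C1qb, C1qa, Tyrobp and Csf1r, and the genotypes overlapped for each marker.

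Few cells outside the annotation carried these transcripts. Of the 25344 other cells, 12 had 5 or more UMIs of the 6 markers, against 83 of the 84 Myeloid cells. The exception was a cell of Dram2 wt/wt replicate 2 with 2 such UMIs, which were 0.0440% of its RNA. The highest share among cells of the other types was 0.127%, so the types overlapped by share. Below it lay that exception and a cell of Dram2 wt/wt replicate 1 at 0.0517%. Further Myeloid cells below it, all of Dram2 wt/wt replicate 2, were at 0.0801%, 0.0975%, 0.106% and 0.120%.

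The Myeloid cells differed widely in how much stromal RNA they carried. Each cell was scored by the share of its UMIs from 10 stromal genes: the matrix and fibroblast genes of the fibroblast list (Dcn, Lum, Col1a1, Col1a2, Col3a1, Pdgfra, Mgp and Postn) and the contractile genes Acta2 and Tagln. This share ran from 0.0156% to 5.05%, with a median of 1.18%. In Fibroblast cells the median was 2.22%, and in Endothelial cells, which should lack most of these transcripts, it was 0.0957%. A high score was not particular to fibroblasts, since RPE cells had a median of 1.49%. Most of the score came from Acta2 and Tagln. The 10 genes summed to 14222 CPM in all 84 cells and 16753 CPM in RPE cells, while the fibroblast list gave 2875 and 750 CPM.

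The cells were divided at 0.2%, a limit that was set after the values had been seen. Below it were 24 cells, at 0.154% or less, with 0.0974% in the next highest. Above it were 60 cells, the lowest at 0.227%, and 9 of the 84 cells lay between 0.1% and 0.5%. The 2 ranges are called low-stromal and stromal-bearing here; they are ranges of a score and not cell types.

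The myeloid markers moved with the score in the opposite sense. In low-stromal cells the 6 markers made up 2.19% to 8.74% of the UMIs, with a median of 5.44%. In stromal-bearing cells they made up 0.0440% to 5.94%, with a median of 0.522%, and 57 of the 60 cells were under the lowest low-stromal cell. Depth differed as well: low-stromal cells had 3654 to 38638 UMIs, while 25 stromal-bearing cells were deeper than any of them and 21 had under 10000 UMIs. Of these 21 shallow cells, 15 came from Dram2 wt/wt replicate 2.

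**Figure D1:**
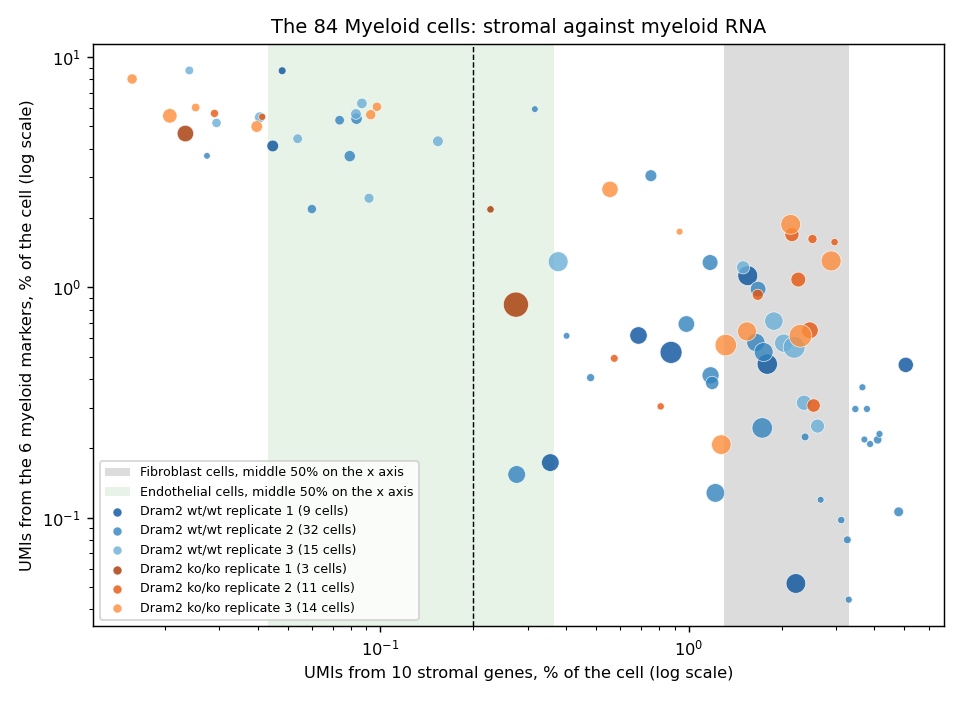
Each point is 1 of the 84 Myeloid cells, with its share of UMIs from 10 stromal genes on the x axis and from the 6 myeloid markers on the y axis, both in percent on log scales. Colour gives the sample, point area grows with the UMIs of the cell, the dashed line is at 0.2%, and the bands span the middle of the x values of Fibroblast and Endothelial cells (quartile to quartile). The 24 cells left of the line all lie at 2.19% or more on the y axis, and 57 of the other 60 lie below that level.

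Both ranges were found in every sample. The low-stromal cells numbered 2, 5 and 8 in Dram2 wt/wt and 1, 2 and 6 in Dram2 ko/ko, that is between 15.6% of the Myeloid cells (Dram2 wt/wt replicate 2) and 53.3% (Dram2 wt/wt replicate 3). Whether a stromal-bearing barcode held RNA of more than 1 cell was not tested. No Myeloid cell has an entry in the deposited fibroblast sub-clustering. Because the pooled levels mix both ranges, most levels from here on are those of the low-stromal cells, a range set after seeing the values. They do not stand for the whole type, and levels of all 84 cells are named as such. The 321591 UMIs of the low-stromal cells make 1 UMI worth 3.11 CPM and 0 UMIs a limit of 9.33 CPM.

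All 6 markers were higher in the low-stromal cells. Lyz2 reached 39230 CPM there against 4985 CPM in the stromal-bearing cells. Tyrobp was at 3728 against 565 CPM, C1qb at 3520 against 806 CPM, Pf4 at 2562 against 338 CPM, C1qa at 2301 against 560 CPM and Csf1r at 491 against 97.0 CPM. The 6 together summed to 51833 CPM in low-stromal cells and, over the 6 samples, to between 42393 and 59039 CPM.

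Genes that did not enter the score also differed between the ranges. Those named here are among the highest of the genes picked below for a wide gap between Fibroblast and low-stromal cells. S100a6, a calcium-binding protein gene, was at 1664 CPM in low-stromal cells, 23308 CPM in stromal-bearing cells and 25745 CPM in Fibroblast cells. Timp1, an inhibitor of matrix metalloproteinases, was at 68.4, 3711 and 3958 CPM in the same order, and Ptgs2, the inducible prostaglandin synthase gene, at 52.9, 1624 and 2180 CPM. Thus a pooled Myeloid level of 1394 CPM for Ptgs2 came almost wholly from stromal-bearing cells, since 17 of its 3065 UMIs were in low-stromal cells.

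The same was described over genes picked for a wide gap between Fibroblast and low-stromal cells. A level between them in stromal-bearing cells follows in part from that choice, so it is no test. With the 10 genes of the score left out, 239 genes with a symbol and 100 CPM or more in Fibroblast were at least 10 times higher in Fibroblast than in low-stromal cells. In the stromal-bearing cells 230 of them lay between these levels, at a median of 73.9% of the Fibroblast level (quartiles 65.5% and 81.0%). In the reverse sense 209 genes were at least 10 times higher in low-stromal than in Fibroblast cells, all 209 lay between in stromal-bearing cells, and their median there was 19.2% of the low-stromal level (quartiles 15.5% and 23.4%).

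**Figure D2:**
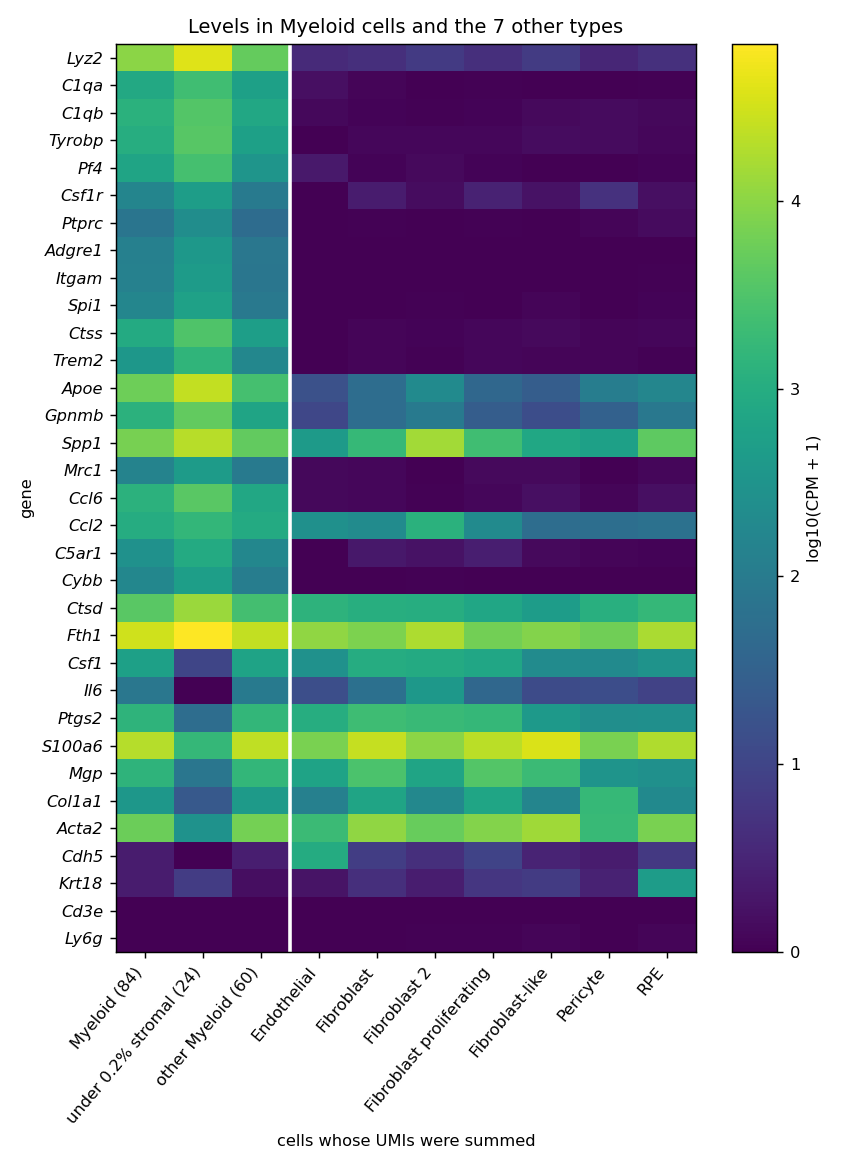
Colour gives log10(CPM + 1) of each gene (rows) in the summed UMIs of all 84 Myeloid cells, of the 24 low-stromal and 60 stromal-bearing cells, and, right of the white line, of the 7 other types. Myeloid genes such as Lyz2, Ctss and Trem2 are brightest in the low-stromal column. By contrast Csf1, Il6, Ptgs2, S100a6, Mgp, Col1a1 and Acta2 are brighter in the stromal-bearing column than in the low-stromal one.

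Markers of further lineages were near 0. The endothelial genes Pecam1, Cdh5, Kdr, Tek and Vwf summed to 12.7 CPM in Myeloid cells against 2265 CPM in Endothelial cells, with 5.07 to 21.8 CPM over the samples. The RPE list summed to 1.82 CPM and the Schwann cell list to 0.910 CPM. Of the 8 T and NK cell genes 7 had no UMI, as had 3 of 4 B cell genes and 5 of 6 mast cell genes, Cd3e and Cpa3 among them. The neutrophil genes S100a9, Ly6g, Mpo and Retnlg had no UMI, and S100a8, which other myeloid cells can also make, was at 205 CPM in low-stromal cells. The fibroblast list was the exception, with 115 CPM in low-stromal cells, 3348 CPM in stromal-bearing cells and 5178 CPM in Fibroblast, and with 568 to 4870 CPM in the pooled Myeloid cells of the 6 samples.

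The leukocyte and macrophage genes of the general myeloid list were nearly all far higher than in any other type. At 10 CPM or more and 10-fold or more above every other type were 14 of its 15 genes in low-stromal cells, against 4.51% of all 7844 genes at that level. Over all 84 cells it was 13 of the 15. Fcer1g, the shared signalling chain of Fc receptors, stood at 4164 CPM, Ctss, a lysosomal protease of antigen processing, at 3253 CPM and Cd68, a macrophage lysosomal membrane gene, at 1517 CPM. Ptprc (CD45, the leukocyte phosphatase), Adgre1 (F4/80) and Itgam (CD11b) were at 230, 379 and 445 CPM, and none exceeded 0.404 CPM in another type. The exception was Mertk, a receptor for dying cells, at 87.1 CPM in low-stromal cells and 166 CPM in Endothelial cells.

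Detection of Ptprc showed the ranges at equal depth. With each cell thinned to 4000 UMIs, 14 of 23 low-stromal cells (60.9%) and 14 of 58 stromal-bearing cells (24.1%) had a Ptprc UMI, and 3 shallower cells were left out. Without thinning the shares were 91.7% and 56.7%, at median depths of 12384 and 31335 UMIs. In Fibroblast cells, which should lack the gene, the thinned share was 0.0159% and the unthinned one 0.166%, at a median depth of 26108 UMIs. Trem2 was found in all 23 thinned low-stromal cells and in 34.5% of the stromal-bearing ones, against 0.0318% of Fibroblast cells.

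Of the myeloid transcription factors, Maf was at 603 CPM and Spi1 at 594 CPM in low-stromal cells. Spi1 reached at most 0.152 CPM in any other type, while Maf, which guides macrophage identity, reached 42.4 CPM in RPE cells. Irf8 and Ikzf1, which act in leukocyte development, were lower at 118 and 71.5 CPM. By contrast Cebpb was at 889 CPM but at 1954 CPM in Fibroblast 2 cells. In low-stromal cells 4 of the 12 factors at 10 CPM or more passed 10-fold, against 4.51% of all genes at that level. Over all Myeloid cells it was 2 of 13.

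The search for a short PU.1-like word in the promoters of the genes with the highest ratios gave matches in some of them. The set was the 25 genes with the highest ratio of pooled Myeloid level to the highest other type. With the 6 markers it held 26 genes. Windows came from a RefSeq promoter table (GRCm38.p6, from 250 bases before to 50 after the annotated start). The windows of a single chromosome were left out before the search, and the rest is called the table here. In it 17 of the 26 genes have an entry, and the markers C1qa, Csf1r and Tyrobp have none. GAGGAAG was searched on both strands, so that it can appear as CTTCCTC. It was present for 8 of the 17 genes, C1qc, Ctss, F13a1, Fcgr3, Itgam, Pf4, Trem2 and Wfdc17, a share of 47.1% of genes beside 15.4% of all 27025 genes of the table. Some genes have several windows, and by window the word was in 10 of 20 for these genes and in 13.6% of all 32851. It was not in the windows of C1qb, Ccl12, Ccl6, Cd300c2, Cybb, Lyz2, Mpeg1, Ms4a6c and Ms4a7.

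The windows below are those of Lyz2, the highest of the 6 markers, which has no match, and of 5 high genes with 1 match each, in capitals. They are C1qc (a C1q subunit), Pf4, Ctss, Trem2 (a lipid-sensing receptor) and Wfdc17 (a macrophage secreted protein), in the direction of the gene.
Lyz2, chr10:117282223-117282522, minus strand: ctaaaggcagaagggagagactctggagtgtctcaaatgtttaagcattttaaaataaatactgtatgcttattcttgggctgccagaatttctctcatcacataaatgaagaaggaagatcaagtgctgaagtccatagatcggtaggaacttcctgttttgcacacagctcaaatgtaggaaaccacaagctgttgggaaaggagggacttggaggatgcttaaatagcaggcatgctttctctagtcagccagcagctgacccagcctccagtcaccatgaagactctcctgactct
C1qc, chr4:136892865-136893164, minus strand: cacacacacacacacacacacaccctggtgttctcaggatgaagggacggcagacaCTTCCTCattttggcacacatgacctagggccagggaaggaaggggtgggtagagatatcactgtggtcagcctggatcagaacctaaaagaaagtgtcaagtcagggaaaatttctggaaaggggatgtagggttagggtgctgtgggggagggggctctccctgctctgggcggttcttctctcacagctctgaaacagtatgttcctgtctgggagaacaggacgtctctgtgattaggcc
Pf4, chr5:90772185-90772484, plus strand: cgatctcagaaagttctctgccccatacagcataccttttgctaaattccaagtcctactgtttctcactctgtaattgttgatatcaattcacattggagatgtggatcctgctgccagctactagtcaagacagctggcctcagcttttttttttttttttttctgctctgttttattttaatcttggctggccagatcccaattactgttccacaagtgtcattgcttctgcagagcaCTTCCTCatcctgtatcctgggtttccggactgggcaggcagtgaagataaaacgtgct
Ctss, chr3:95526536-95526835, plus strand: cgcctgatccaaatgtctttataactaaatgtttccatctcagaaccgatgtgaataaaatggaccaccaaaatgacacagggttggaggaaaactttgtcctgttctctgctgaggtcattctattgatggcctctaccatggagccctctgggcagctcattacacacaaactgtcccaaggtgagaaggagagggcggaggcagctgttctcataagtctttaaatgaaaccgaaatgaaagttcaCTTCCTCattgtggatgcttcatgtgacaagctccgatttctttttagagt
Trem2, chr17:48346151-48346450, plus strand: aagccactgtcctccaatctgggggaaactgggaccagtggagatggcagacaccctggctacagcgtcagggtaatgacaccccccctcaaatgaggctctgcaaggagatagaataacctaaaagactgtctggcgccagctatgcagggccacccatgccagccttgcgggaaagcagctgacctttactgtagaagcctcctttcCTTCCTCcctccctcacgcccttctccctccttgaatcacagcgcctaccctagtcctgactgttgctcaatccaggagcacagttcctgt
Wfdc17, chr11:83703806-83704105, plus strand: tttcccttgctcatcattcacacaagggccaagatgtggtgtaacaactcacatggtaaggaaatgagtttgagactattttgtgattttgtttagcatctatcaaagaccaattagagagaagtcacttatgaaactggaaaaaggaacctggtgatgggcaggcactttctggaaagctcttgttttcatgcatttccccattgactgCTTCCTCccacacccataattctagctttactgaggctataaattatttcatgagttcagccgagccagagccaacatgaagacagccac

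Counting from the annotated start as 0, the word began at -9 for Pf4, -1 for Ctss, -41 for Trem2, -40 for Wfdc17 and -194 for C1qc. In all 5 of these windows it was read as CTTCCTC. The 6 genes differed in level by far less than they differed from other types: in low-stromal cells C1qc was at 1968 CPM, Trem2 at 1452 CPM and Wfdc17 at 3492 CPM, and none of the 3 exceeded 1.21 CPM elsewhere.

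Complement genes formed one of the strongest groups. Of the 14 genes of the list, 10 were at 10 CPM or more in low-stromal cells. Of these 10 genes, 9 were 10-fold or more above every other type, against 4.51% of all genes at that level. Besides the C1q subunits these were C5ar1 and C3ar1, the receptors for the complement fragments C5a and C3a, at 911 and 498 CPM, Cfp (properdin, which stabilises the alternative pathway convertase) at 613 CPM, and the subunits of complement receptor CR3, Itgam and Itgb2. The central component C3 completed the 9, at only 12.4 CPM from 4 UMIs. C2 and C4b had no UMI in these cells.

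Receptors for uptake followed the same pattern. In low-stromal cells 9 of 12 phagocytic genes at 10 CPM or more were 10-fold or more above every other type. The share over all genes at that level was 4.51%. The activating receptor gene Fcgr3 was at 840 CPM, the inhibitory receptor gene Fcgr2b at 438 CPM, the scavenger receptor genes Msr1 and Cd36 at 619 and 507 CPM, and the mannose receptor gene Mrc1 at 442 CPM. The dectin gene Clec7a was at 131 CPM. Axl, a receptor for dying cells like Mertk, went the other way, with 68.4 CPM in low-stromal, 438 CPM in stromal-bearing and 541 CPM in Fibroblast cells.

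Genes of lipid handling were among the highest of the transcriptome. Apoe, the lipid carrier, was at 24438 CPM in low-stromal cells and at most 208 CPM in another type. Gpnmb, a glycoprotein of lipid-laden macrophages, was at 4801 CPM against at most 91.9 CPM, and Trem2 at 1452 against 0.194 CPM. The matrix cytokine gene Spp1 was also high, at 20965 CPM, but Fibroblast 2 cells held 14413 CPM. Lgals3, Plin2 and Lipa were at 3694, 967 and 600 CPM, and reached 1304, 861 and 243 CPM in the highest other type. Apoc1 had no UMI. In low-stromal cells 5 of the 14 lipid genes at 10 CPM or more were 10-fold or more above every other type. For all genes at that level it was 4.51%.

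The lysosome genes were high in level but shared with other cells. All 20 were found at 10 CPM or more in low-stromal cells and 18 were higher than in stromal-bearing cells, and 16 were above every other type, against 28.4% of the 7844 genes. Only Ctss and Ctsb were 10-fold or more above every other type (2 of 20), against 4.51% of all genes at 10 CPM or more. The proteases Ctsd, Ctsb and Ctsl were at 13097, 8178 and 4898 CPM, against at most 1689, 719 and 1732 CPM elsewhere. The membrane proteins Cd63 and Lamp2 were lower than in Fibroblast 2 cells, at 448 against 736 CPM and 317 against 439 CPM. The median ratio of the list to the highest other type was 2.47, against 0.665 over all genes at 10 CPM or more.

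The E-box word TCACGTG, known from genes under lysosomal transcription factors, was looked for in the same way, on both strands, where TCACGTGA counts once on each. Of the 20 lysosome genes 15 have an entry and 5 held the word, Atp6v0d1, Ctsd, Gla, Lamp1 and Mcoln1, that is 33.3% of genes beside 4.29% of all genes of the table. That of Ctsd, the highest of the list, is shown with its 3 matches in capitals, 2 of which overlap.
Ctsd, chr7:142387778-142388077, minus strand: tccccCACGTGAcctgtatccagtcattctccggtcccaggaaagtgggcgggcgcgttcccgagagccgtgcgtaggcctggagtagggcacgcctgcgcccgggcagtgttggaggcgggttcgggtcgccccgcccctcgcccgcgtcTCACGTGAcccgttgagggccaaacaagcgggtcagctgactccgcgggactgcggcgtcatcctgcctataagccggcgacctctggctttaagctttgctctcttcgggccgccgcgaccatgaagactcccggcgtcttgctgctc

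Iron genes included the highest transcript of all. Fth1, the ferritin heavy chain, was at 68746 CPM in low-stromal cells, 24625 CPM in stromal-bearing cells and at most 17414 CPM in another type. The natural resistance gene Slc11a1, an iron transporter of the phagosome, was at 246 CPM against at most 5.62 CPM. Hmox1, which degrades haem, was at 4344 CPM, below the 5009 CPM of Endothelial cells. The iron exporter Slc40a1 was at 140 CPM, and Spic and Cd163, which mark macrophages that clear red cells, had no UMI in low-stromal cells.

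The chemokines split into those of these cells and those shared with fibroblasts. Ccl6, Ccl9, Ccl12, Ccl4 and Ccl3 were at 4011, 1502, 581, 308 and 218 CPM in low-stromal cells, with 16.5 CPM or less in any other type. Ccl2 and Ccl7, which draw monocytes, were at 1570 and 1533 CPM but at 1216 and 3283 CPM in Fibroblast 2 cells. The cytokine genes Il6, Il1b, Il10, Cxcl1 and Cxcl10 had no UMI in low-stromal cells, although Il6 reached 97.0 CPM in the stromal-bearing range, 60.6 CPM in the Fibroblast type and 387 CPM in Fibroblast 2. Tnf was low, at 15.5 CPM from 5 UMIs.

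The receptor genes for colony-stimulating factors were in Myeloid cells, and their ligand genes Csf1 and Il34 were highest in other types. Csf1r, Csf2ra and Csf2rb were at 491, 246 and 205 CPM in low-stromal cells and at 14.4 CPM or less in other types. The ligand gene Csf1 was at 984 CPM in Fibroblast cells, 646 CPM in stromal-bearing cells and 9.33 CPM (3 UMIs) in low-stromal cells. Il34, the other ligand of the receptor, had no UMI in low-stromal cells and was highest, at 43.7 CPM, in the cells annotated as Pericyte, where the Schwann cell list summed to 1164 CPM. Cx3cl1 was at 42.9 CPM in Endothelial cells, and its receptor gene Cx3cr1 at 43.5 CPM in low-stromal cells, from 14 UMIs in 4 cells. The ligand list as a whole summed to 3492 CPM in low-stromal cells, 1931 CPM in the Fibroblast type and 5567 CPM in Fibroblast 2, and in low-stromal cells most of it came from the chemokine genes Ccl2 and Ccl7.

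Oxidase and innate sensing genes were present as well. Cyba, a membrane subunit of the phagocyte oxidase that many cells make, was at 3100 CPM in low-stromal cells and at 928 CPM in Fibroblast 2 cells. In low-stromal cells Cybb, its catalytic subunit, was at 507 CPM, Rac2 at 286 CPM and Ncf1 at 252 CPM, and none of the 3 exceeded 0.455 CPM elsewhere. Of the 11 genes of the Toll-like receptor list 7 were 10-fold or more above every other type in low-stromal cells. Among all genes at 10 CPM or more there it was 4.51%. Over all Myeloid cells only 3 of the 11 passed 10-fold. The endosomal receptors Tlr13 and Tlr7 were at 93.3 and 62.2 CPM, the inflammasome adaptor Pycard at 345 CPM and Nlrp3 at 43.5 CPM.

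Lists for macrophage kinds were only partly filled. Of the perivascular list, Stab1, Mrc1, F13a1 and Gas6 were at 466, 442, 376 and 336 CPM in low-stromal cells, whereas Lyve1, Timd4 and Cd163 had no UMI there. Of the microglia list P2ry12 had 3 UMIs in low-stromal cells, Tmem119 had 7 (21.8 CPM, beside 13.8 CPM in the Fibroblast type), and Sall1 and Siglech had none. Olfml3 had 12, Gpr34 3 and P2ry13 2 UMIs, and the list summed to 127 CPM. Of its 8 genes 6, Cx3cr1 included, were above every other type, but P2ry12, Gpr34 and P2ry13 only on these few UMIs. At 10 CPM or more were 3 of the 8, and none passed 10-fold. Of all genes at 10 CPM or more, 28.4% were above every other type. Of the monocyte list Itgal had 27 UMIs in 16 cells, Ccr2, Chil3 and Ms4a4c had no UMI and Ly6c2 had 2. Plac8, at 3.11 CPM in low-stromal cells, was at 134 CPM in stromal-bearing and 164 CPM in Fibroblast cells. Of the dendritic cell list Itgax was at 34.2 CPM from 11 UMIs, and Flt3, Xcr1, Clec9a, Ccr7, Cd209a and Zbtb46 had none.

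Polarisation genes were sparse. Nos2, Il12b and Il1b, of the classical list, had no UMI in low-stromal cells, and neither had Retnla and Chil3 of the alternative list. Mrc1 carried most of the alternative list, 442 of 656 CPM. The interferon list summed to 162 CPM in low-stromal, 207 CPM in stromal-bearing and 98.5 CPM in Fibroblast cells. Among angiogenic genes the insulin-like growth factor gene Igf1 was at 224 CPM and the elastase gene Mmp12 at 264 CPM, while Vegfa had 18.7 CPM, lower than the 119 CPM of the Fibroblast type. Among the osteoclast and fusion genes Acp5 was at 205 CPM and Dcstamp had 4 UMIs, all in 1 cell.

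**Figure D3:**
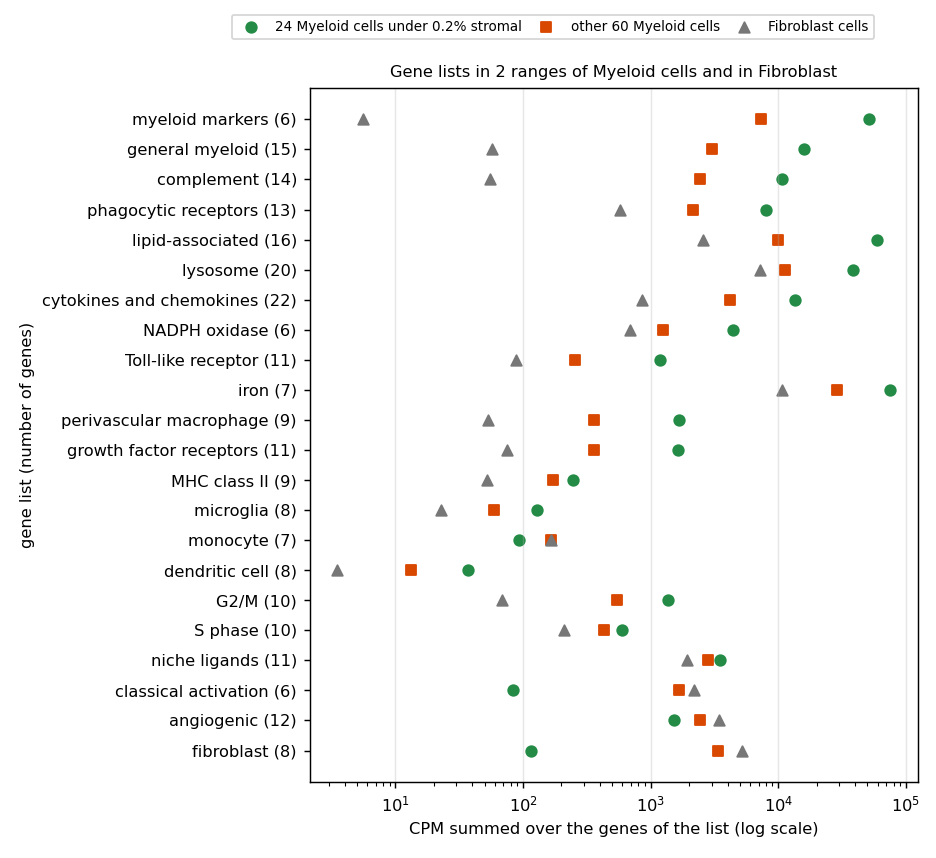
Each row is a gene list with its number of genes, and the x axis is the CPM summed over the list on a log scale in the 24 low-stromal cells (circles), the 60 stromal-bearing cells (squares) and Fibroblast cells (triangles). The stromal-bearing cells lie between the other groups for most lists, as for complement (10694, 2433 and 54.8 CPM), and the fibroblast, classical and angiogenic lists run in the reverse order.

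The low-stromal cells differed among themselves far more in some genes than in others. Ctss was found in all 24 cells, at 1398 to 7693 CPM, and Tyrobp at 2404 to 6842 CPM. C1q, as the sum of C1qa, C1qb and C1qc, ran from 0 to 21763 CPM with a median of 7863 CPM. Pf4 ran from 0 to 9367 CPM, Gpnmb from 0 to 31746 CPM, Apoe from 99.8 to 72671 CPM and Spp1 from 200 to 69553 CPM. These are levels of single cells with as few as 3654 UMIs, so 0 means only that no molecule was counted.

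Several single cells stood apart. The 2 cells without C1q both came from Dram2 ko/ko replicate 3 and had 17635 and 12908 UMIs, where the median low-stromal cell had 71.5 C1q UMIs. The deeper of them held 62 of the 70 Arg1 UMIs of the type, 103 Pf4 UMIs and 14 F13a1 UMIs. The low-stromal cell with the most F13a1 (50 UMIs, factor XIII subunit) was the only one of Dram2 ko/ko replicate 1; it had 1075 Spp1 UMIs and 56 C1q UMIs among 38638. A cell of Dram2 wt/wt replicate 2 with 10017 UMIs had 218 C1q UMIs but 2 of Spp1, 1 of Apoe and none of Gpnmb, and it carried 15 of Mmp12, 4 of Cx3cr1, 4 of Itgax and 5 of Cd74.

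Other genes were concentrated in single stromal-bearing cells. A cell of Dram2 wt/wt replicate 3 with 23596 UMIs held all 50 Cxcl10 UMIs, 37 of 42 Ifit3 UMIs, 34 of 49 Ifit1 UMIs and 96 of 160 Isg15 UMIs, all genes induced by interferon. These genes were not absent elsewhere: a UMI of Ifit1 was found in 9.52% of Myeloid, 6.36% of Fibroblast and 13.9% of Fibroblast 2 cells, or 3.70%, 2.01% and 4.18% after thinning to 4000 UMIs. A cell of Dram2 wt/wt replicate 2 with 61203 UMIs and a stromal share of 1.73% held 88 of 139 UMIs of Cd74, the MHC class II chaperone, 16 of 26 of H2-Aa, 14 of 41 of H2-Ab1 and 8 of 20 of H2-Eb1. The pooled levels of Cd74 (63.2 CPM) and Cxcl10 (22.7 CPM) thus stand for very few cells. Class II genes were not limited to that cell of Dram2 wt/wt replicate 2, and most UMIs of H2-Ab1 and H2-Eb1 lay elsewhere. Cd74 was found in 12 cells, 6 of them low-stromal, H2-Ab1 in 16 cells and H2-Eb1 in 9.

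Transcripts of dividing cells were found in part of the low-stromal cells. Of the 24, 9 had 2 or more UMIs of the cycling genes Mki67 and Top2a together, up to 23, and the other 15 had none of these 2 genes. With the whole lists, 15 of the 24 had a UMI of the G2/M list and 17 of the S phase list, 13 of them with 2 or more UMIs in each case. Such a UMI alone does not mark a dividing cell: the unthinned shares in Fibroblast were 67.3% and 93.1%. After thinning to 4000 UMIs the G2/M shares were 56.5% in low-stromal and 21.9% in Fibroblast cells. For the S phase list they were 56.5% and 52.4%. The 9 came from 5 samples and had 10017 to 38638 UMIs (median 16355), against 3654 to 16745 UMIs (median 10269) for the rest. The G2/M list summed to 1359 CPM in low-stromal and 548 CPM in stromal-bearing cells, and in the other types from 22.2 CPM in Fibroblast 2 and 68.1 CPM in Fibroblast to 1017 CPM in RPE, 1981 CPM in Pericyte and 2200 CPM in Fibroblast proliferating. With each cell thinned to 4000 UMIs, 39.1% of low-stromal, 22.4% of stromal-bearing and 27.2% of all Myeloid cells had at least 1 UMI of Mki67 or Top2a. The 95% Wilson intervals were 22.2% to 59.2% for the first and 18.7% to 37.7% for the last. These intervals cover counting error over pooled cells only, not the spread between samples. Without thinning the shares were 37.5%, 48.3% and 45.2%. The thinned share was 4.21% in Fibroblast, 71.8% in Fibroblast proliferating and 3.23% in Endothelial cells, with unthinned shares of 21.7%, 93.4% and 7.64% at median depths of 26108, 24625 and 9263 UMIs. Pericyte (51.1%) and RPE cells (32.7%) had higher thinned shares than all Myeloid cells, while Fibroblast-like (18.5%) and Fibroblast 2 cells (1.30%) had lower ones.

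Between the 4 samples with 10 or more Myeloid cells, the 10 list genes with the widest span were Mmp12, Cd74, Isg15, Arg1, Cxcl10, Ifit1, Ifit3, Il6, Lum and Clec7a. Mmp12, an elastase, was at 54.1, 237 and 136 CPM in Dram2 wt/wt and at 36.4, 5.67 and 134 CPM in Dram2 ko/ko. Cd74 was at 10.3, 222 and 2.47 CPM in Dram2 wt/wt and at 0, 0 and 6.01 CPM in Dram2 ko/ko. Arg1 was at 2.58, 3.38 and 12.3 CPM in Dram2 wt/wt and at 0, 0 and 124 CPM in Dram2 ko/ko. Over all 6 samples the values of the genotypes overlapped for each of the 10 genes, ties at 0 included. For Arg1, Cxcl10, Ifit1, Ifit3, Isg15 and Cd74 a single cell gave most of the UMIs of the type.

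**Figure D4:**
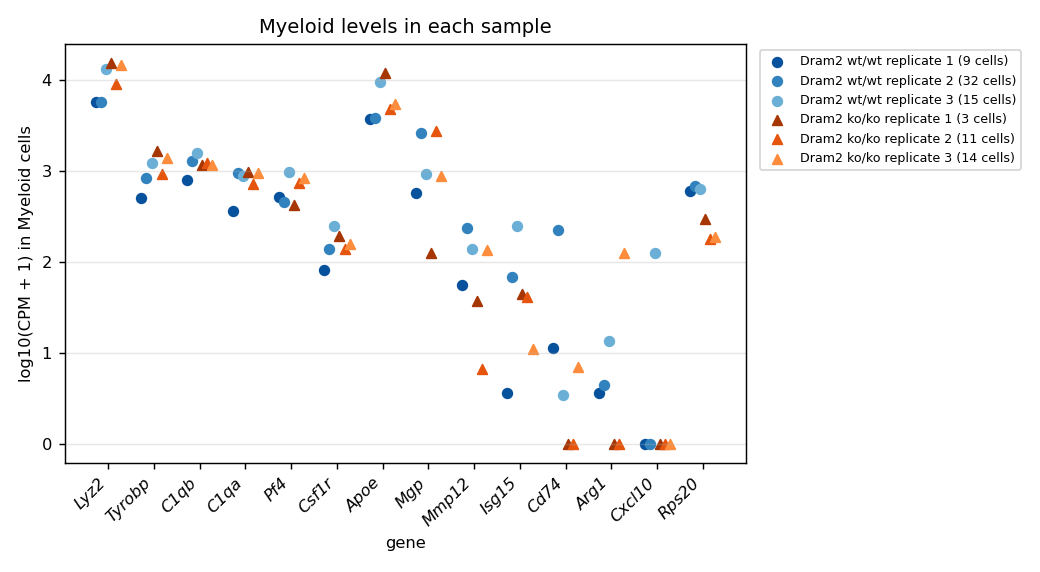
Points give log10(CPM + 1) of each gene in the summed Myeloid cells of each sample, circles for Dram2 wt/wt and triangles for Dram2 ko/ko. The markers at the left stay within an order of magnitude, Cd74, Arg1 and Cxcl10 are high in 1 sample each, and Rps20 at the right is the only one shown whose genotypes do not overlap.

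The share of Myeloid cells was compared between genotypes to see whether their number changed with Dram2. It was 0.235%, 0.696% and 0.347% of all cells in Dram2 wt/wt and 0.140%, 0.165% and 0.359% in Dram2 ko/ko. Replicate 2 of Dram2 wt/wt was the highest, with a 95% Wilson interval of 0.493% to 0.980%, and Dram2 ko/ko replicate 3 lay above 2 of the Dram2 wt/wt samples. The means were 0.426% ± 0.240 and 0.222% ± 0.120 (SD, n = 3 each), with an exact two-sided permutation p of 0.3, where 0.1 is the smallest this design allows. The difference of -0.204 percentage points shrank to -0.0696 without Dram2 wt/wt replicate 2. Among batch 1 samples alone it was -0.273, and there each Dram2 wt/wt share was above each Dram2 ko/ko share. The exact permutation p was 0.2, the smallest these samples allow. Low-stromal cells alone were 0.115% ± 0.0667 and 0.0770% ± 0.0673 of all cells (SD, n = 3 each, exact permutation p 0.5).

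**Figure D5:**
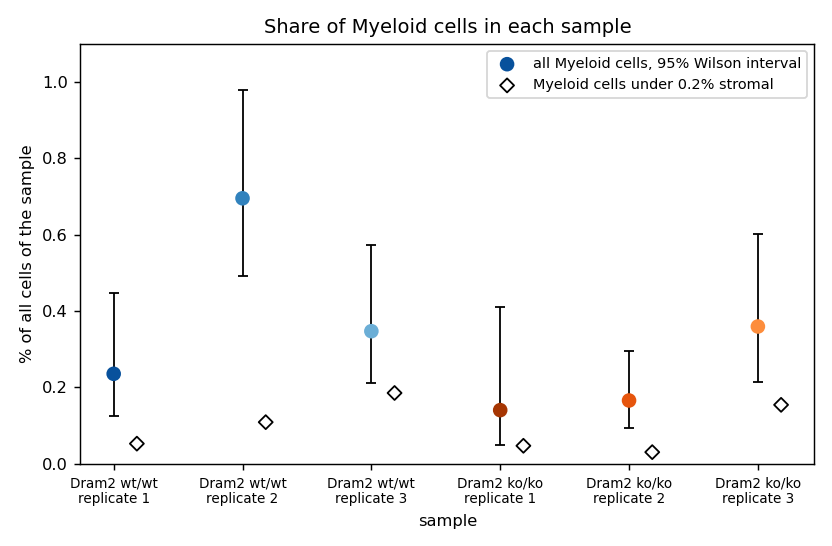
The y axis is the percentage of all cells of a sample, with filled circles for all Myeloid cells and their 95% Wilson intervals (counting error only) and open diamonds for the low-stromal cells. The interval of Dram2 wt/wt replicate 2 lies above those of Dram2 ko/ko replicates 1 and 2 and overlaps that of replicate 3, and this sample, the highest at 0.696%, has 0.109% low-stromal cells.

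Expression was compared between genotypes in the 4 samples with 10 or more Myeloid cells, 2 per genotype, by voom-limma on summed counts. Of 6747 genes tested 2 were called at an adjusted p under 0.05 (0.0296%), both lower in Dram2 ko/ko. Dram2 itself was at 25.8, 57.5 and 64.1 CPM in Dram2 wt/wt and at 14.6, 68.1 and 38.1 CPM in Dram2 ko/ko, and the groups overlapped. Its log2 fold change was -0.39 ± 0.35 (SE, adjusted p 0.925); a count of the transcript's 3′ end does not read exon 4, so it is no check of the deletion. In 4 of the 7 other types Dram2 was lower in all 3 Dram2 ko/ko samples than in all 3 Dram2 wt/wt samples. In Fibroblast it was at 29.9 to 33.6 CPM against 34.9 to 42.5 CPM. The types share the same samples, and the share of all genes that separate in this way was not taken. The 6 markers had log2 fold changes from -0.28 to 0.41, none of them called. In low-stromal cells alone, which are 1 to 8 cells in each of all 6 samples, C1qa was at 2817, 3193 and 2334 CPM in Dram2 wt/wt and at 0, 2469 and 2520 CPM in Dram2 ko/ko, where the 0 is the single cell of replicate 1. C1qb was at 4433, 4581 and 4618 CPM against 544, 6385 and 2299 CPM there, and neither gene was called (voom-limma adjusted p 0.446 and 0.516). No gene of any list was called in all Myeloid cells, which with 2 samples per genotype does not show that their levels were alike.

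The called genes were the ribosomal protein gene Rps20 (chr4:3831334-3835665) and Wdr89 (chr12:75630596-75669537), which encodes a WD repeat protein. Rps20 was at 598, 687 and 631 CPM in Dram2 wt/wt and at 291, 176 and 184 CPM in Dram2 ko/ko, a log2 fold change of -1.83 ± 0.23 (SE, voom-limma adjusted p 0.0274). Wdr89 was at 732, 859 and 693 CPM against 437, 244 and 222 CPM, a log2 fold change of -1.71 ± 0.23 (SE, voom-limma adjusted p 0.0292). Both calls were lost, with folds of the same sign, under 3 alternatives of the voom-limma fit. With all 6 samples the log2 fold changes were -1.57 and -1.40 (voom-limma adjusted p 0.0924 and 0.189). With batch as a covariate, which leaves Dram2 ko/ko replicate 2 alone for its genotype, they were -1.88 and -1.64 (voom-limma adjusted p 0.0524 and 0.0658). In low-stromal cells alone they were -1.36 and -1.79 (voom-limma adjusted p 0.258 and 0.249).

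Both genes also differed between the genotypes elsewhere. In each of the 7 other types the 3 Dram2 wt/wt samples were all above the 3 Dram2 ko/ko samples for both genes. In Fibroblast Rps20 was at 661 to 741 CPM against 185 to 357 CPM. These types also share the same samples, and the share of all genes so separated is not known. The last 400 bases of each transcript were cut into words of 31 bases, which were looked for on both strands of other transcripts. Of the Rps20 words 37.8% recurred in 9 other genes, and of the Wdr89 words 22.3% recurred in 3366 others. No such share was taken for any further gene, and the assignment of the reads was not tested.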

How the data were processed

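Cells of mouse RPE and choroid were profiled with 10x Genomics single cell 3′ chemistry. The deposited UMI counts were made by the authors with Cell Ranger 3.1.0 on GRCm38 (submitters' processing notes), exonic reads only, and a deposited metadata table gives sample, batch and cell type. Counts are whole numbers per gene and cell. All 52636 genes were kept; 52489 have a symbol in GENCODE M21.

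Cells named Myeloid were taken from the deposited annotation; no doublet caller was run, and the treatment of doublets is not given in the sources used here. Counts were summed per cell type and sample and divided by their total (CPM). Differences between cell types have no test, since the types came from clustering the same expression values. Cells were thinned to 4000 UMIs for shares of cells. No Myeloid cell fell under 500 genes or over 20% mitochondrial UMIs.

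Genotypes were compared by voom-limma (limma 3.58.1, edgeR 4.0.16 TMM factors, filterByExpr, Benjamini-Hochberg), in R 4.3.3, on samples with 10 or more Myeloid cells, and shares by an exact permutation test. The fit was tested on simulated data. It called 66 of 100 genes changed by a log2 fold of 2, 9 of 100 changed by 1 and 0 of 6547 unchanged genes. The simulated samples shared a single mean profile, with no difference of batch or stromal RNA, so false calls from such differences were not tested. The labels give no origin of the samples beyond replicate numbers, so p-values measure the spread between these samples. Alternatives were edgeR quasi-likelihood, DESeq2 1.42.0, other scaling and filters, a replicate block, batch, the cells kept and each sample left out.

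Named genes were any gene of the lists, the 25 highest by ratio to other types (at 100 CPM or more), the 10 highest by level, the 10 list genes of widest span between samples and called genes; some genes of the lists are not reported here. Acta2, Tagln, Timp1 and single cells were named after their values were seen. The members and lists were chosen with earlier results of these data known, and the 0.2% limit was set after seeing the data.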

Additional observations from a re-analysis of the deposited data

How the results depend on the processing

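All 6 markers stayed 10-fold or more above every other type under each of the 12 alternatives run, including low-stromal and stromal-bearing cells alone. The lower share of Myeloid cells in Dram2 ko/ko kept its direction throughout. With a sample left out the difference was -0.300 to -0.0696 percentage points (exact permutation p 0.2 to 0.6). That test cannot go below 0.2 with a sample left out, or below 0.1 with all 6 samples, so neither could pass 0.05. With a replicate block the permutation p was 0.5. In edgeR quasi-likelihood on cell numbers the log2 fold change was -0.98 (p 0.168). The share of Myeloid cells with Mki67 or Top2a was 45.2% without thinning and 16.0% at 2 or more UMIs.

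The count of genotype calls, 2 in voom-limma, was 10 in edgeR, 8 in DESeq2, 59 without a filter on low counts, and 6 to 83 with a sample left out, where the lone sample is assumed to vary like the others. It was highest without Dram2 wt/wt replicate 3 (83), then without Dram2 wt/wt replicate 2 (47), Dram2 ko/ko replicate 2 (19) and Dram2 ko/ko replicate 3 (6). It was 0 in voom-limma with all 6 samples (331 at an unadjusted p under 0.05) and 0 in low-stromal cells, an alternative added after seeing the data, with 693 genes tested (75 unadjusted). A replicate block gave 32, though the labels give same-numbered samples nothing in common beyond the number. The correlation of their deviations was -0.0173. With 2 samples per genotype every pair has this value or its opposite (0.0173), so it cannot show whether such samples are linked. The cause of these shifts was not tested.

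Directions of uncalled genes changed as follows. With all samples and with samples of 5 or more Myeloid cells the log2 fold change was 0.43 and 0.34 for C1qa, 0.058 and 0.051 for C1qb, and 0.22 and 0.11 for Csf1r. With batch as a covariate it was 0.22 for Dram2 and -0.12 for Tyrobp, and in low-stromal cells -0.43 for Pf4. With a sample left out it ran from -0.34 to 0.10 for C1qa, -0.72 to 0.13 for Csf1r, -0.61 to 0.22 for Dram2, -0.11 to 0.52 for Tyrobp, -0.19 to 1.04 for Lyz2 and -0.28 to 0.83 for Pf4. Lyz2, not called with all 4 samples, was called higher in Dram2 ko/ko without Dram2 wt/wt replicate 3 (voom-limma adjusted p 0.0129) and without a filter on low counts (0.50, voom-limma adjusted p 0.0407).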
